A study of Mus musculus with 10 samples.

Results

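Plasmacytoid dendritic cells (pDC) were sought by their markers among the CD45+ cells sorted from SW1 melanomas, a mouse tumor line that grows in C3H/HeJ mice. A barcode was taken as a pDC when Siglech, Ccr9 and Cox6a2 together had at least 2 UMIs, 1 or more of them of Siglech, in a barcode with 500 genes or more and with mitochondrial UMIs at 10% or less. It was also allowed at most 2 UMIs of C1qa, C1qb and C1qc together, which mark macrophages, and no UMI of Cd3e, Cd3d or Cd3g, which mark T cells. A UMI (unique molecular identifier) stands for 1 captured RNA molecule. The rule found 94 barcodes among 31156 that passed the limits on genes and mitochondrial UMIs, out of 41936 deposited. Of these members, 3 came from pretreatment day 0, 64 from control day 7, 26 from L-fuc day 7, 1 from control day 21 and 0 from L-fuc day 21.

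Each of these 5 conditions was 1 library of pooled tumors from female C3H/HeJ mice of 4 to 6 weeks of age at injection, with no genetic change stated. Control mice drank water without L-fuc, and L-fuc mice drank water with 100 mM L-fuc, a sugar that cells add to proteins and lipids, for 7 or 21 days. The day 0 library was taken before treatment began. The labels give pools of 3 mice at pretreatment and 6 per arm in one protocol and 5 per arm in another, and a dose in a different unit in one of them. The labels and the study's methods also differ in the days of tumor growth before treatment. Each condition was 1 library and no mouse could be told from another within a pool, so conditions were not tested against each other and cells did not serve as replicates. All intervals below cover counting error only.

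Dendritic cells take up material and show it to T cells. The plasmacytoid kind is instead known for making large amounts of type I interferon when the endosomal receptors TLR7 and TLR9 meet nucleic acids, a signal carried by MYD88 and IRF7. Their fate depends on the transcription factor TCF4 (E2-2), which binds E-boxes and acts against ID2, with SPIB, IRF8, RUNX2 and BCL11A as further factors of the lineage. SIGLECH and BST2 are surface proteins of mouse pDC, CCR9 is a homing receptor, and COX6A2 is a subunit of cytochrome c oxidase otherwise known from muscle. In tumors, pDC are often described as poor producers of interferon.

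Promoters are shown for both surface markers of the rule, Siglech and Ccr9, and for Spib and Klk1, 2 of the genes that were highest in pDC without being used by the rule. Each sequence runs from 250 bases before to 50 bases after the gene start in RefSeq on GRCm38.p6, 5′ to 3′ on the strand of the gene. Capitals mark E-boxes (CANNTG) and the box GAGGAA or TTCCTC bound by ETS factors of the PU.1 and SPIB kind, searched on both strands, with no base in both. The Siglech promoter at chr7:55767934-55768233 (+) held 3 E-boxes and 1 PU box, the Ccr9 promoter at chr9:123766961-123767260 (+) held 2 E-boxes, the Spib promoter at chr7:44532022-44532321 (-) held 2 and the Klk1 promoter at chr7:44225110-44225409 (+) held 3.
Siglech: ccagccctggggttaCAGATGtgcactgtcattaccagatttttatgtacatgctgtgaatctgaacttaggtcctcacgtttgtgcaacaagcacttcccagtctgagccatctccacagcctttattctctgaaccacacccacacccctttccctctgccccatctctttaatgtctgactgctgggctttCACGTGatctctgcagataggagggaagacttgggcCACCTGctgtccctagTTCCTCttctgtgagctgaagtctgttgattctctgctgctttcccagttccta
Ccr9: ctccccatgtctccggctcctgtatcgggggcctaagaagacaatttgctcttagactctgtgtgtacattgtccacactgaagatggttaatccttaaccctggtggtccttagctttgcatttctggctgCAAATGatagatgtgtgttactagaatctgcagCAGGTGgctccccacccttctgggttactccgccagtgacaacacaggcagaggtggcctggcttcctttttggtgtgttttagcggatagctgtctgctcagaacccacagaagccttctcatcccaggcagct
Spib: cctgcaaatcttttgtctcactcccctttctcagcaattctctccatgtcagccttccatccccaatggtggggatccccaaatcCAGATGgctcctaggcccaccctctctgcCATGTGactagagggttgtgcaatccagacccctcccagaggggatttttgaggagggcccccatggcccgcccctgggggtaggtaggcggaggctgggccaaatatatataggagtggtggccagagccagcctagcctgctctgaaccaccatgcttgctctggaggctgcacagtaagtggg
Klk1: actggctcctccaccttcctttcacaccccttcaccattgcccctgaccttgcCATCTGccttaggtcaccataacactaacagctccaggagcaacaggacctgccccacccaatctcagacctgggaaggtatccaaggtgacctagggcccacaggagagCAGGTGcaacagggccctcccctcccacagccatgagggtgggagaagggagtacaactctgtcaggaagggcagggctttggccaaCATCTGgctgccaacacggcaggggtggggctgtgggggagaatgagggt
Of the 24 pDC identity genes that were higher in pDC in the comparison below, 20 had a RefSeq promoter in the table used here. An E-box was in 15 of them (75%), against 72.1% of 27025 promoters of all genes. A PU box was in 9 (45%), against 28.3% of all promoters. These matches describe letters in the window and were not tested.

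The 5 expression libraries held 14439185 to 119047810 UMIs, and 27.6% (control day 7) to 53.6% (pretreatment) of their kept barcodes had a Ptprc (CD45) UMI. At day 7, 9115 of 17897 kept control barcodes (50.9%) and 2901 of 9034 kept L-fuc barcodes (32.1%) had at least 5 UMIs of Sparc, a gene of the SW1 cells, and none of Ptprc. The 2 day 7 libraries shared 433 barcode sequences, 222 of them kept in both. No member had the sequence of a member of the other library, and 5 members had a sequence found in the other library.

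The members differed widely in depth. The control day 7 members had 894 to 18338 UMIs (median 2957) and a median of 1449 genes, and the L-fuc day 7 members had 1343 to 29236 UMIs (median 6250) and a median of 2112 genes. Their summed UMIs were 300444 and 206064. Mitochondrial UMIs had a median of 2.63% in control and 2.34% in L-fuc members. Siglech, Ccr9 and Cox6a2 together had 2 to 52 UMIs per control member (median 8.5) and 2 to 81 per L-fuc member (median 27), so the L-fuc members were both deeper and richer in the rule genes.

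**Figure D1:**
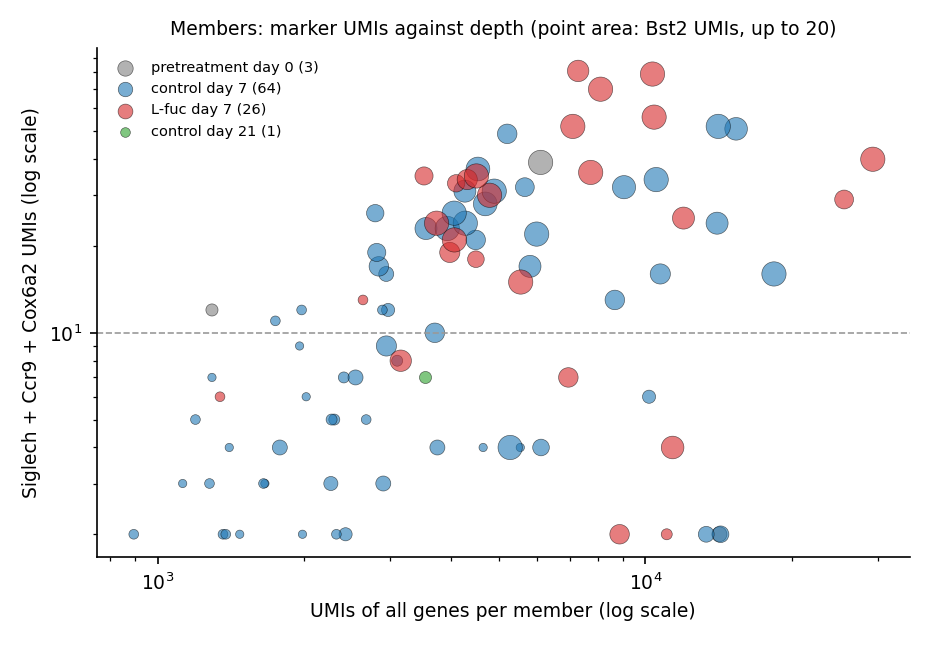
UMIs of Siglech, Ccr9 and Cox6a2 together (y axis, log scale) against UMIs of all genes (x axis, log scale) for each of the 94 members, coloured by library, with the point area growing with Bst2 UMIs up to 20. Of the members, 34 of 64 in control day 7 and 6 of 26 in L-fuc day 7 lie below the dashed line at 10 marker UMIs.

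The genes of the rule set the level of these members by construction and are given as a description. Siglech had 319 UMIs in the 64 control day 7 members, or 1062 counts per 1000000 UMIs of the members (CPM, 948 to 1185), and 265 in the 26 L-fuc day 7 members (1286 CPM, 1136 to 1451). Cox6a2 had 443 UMIs in 41 control members (1474 CPM, 1340 to 1618) and 402 in 22 L-fuc members (1951 CPM, 1765 to 2151). Ccr9 had 118 UMIs in 43 control members (393 CPM, 325 to 470) and 107 in 21 L-fuc members (519 CPM, 426 to 627). All 3 genes were found together in 27 of 64 control members (42.2%) and in 20 of 26 L-fuc members (76.9%). In the other barcodes with a Ptprc UMI these genes stood between 5.38 CPM (Ccr9, control) and 28.5 CPM (Cox6a2, L-fuc). Those barcodes include 68 in control and 44 in L-fuc that had the marker UMIs but were left out by the C1q or Cd3 limit. The values are therefore not levels in cells without the marker UMIs. Of the other cytochrome c oxidase subunits, 11 had at least 20 UMIs in the members of day 7 and none was 2-fold higher or lower than in other Ptprc barcodes in both libraries.

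Just outside the rule lay barcodes with 1 Siglech UMI and no Ccr9 or Cox6a2 UMI, 64 in control and 10 in L-fuc at day 7. The control ones had 12.7 CPM of Plac8, 32.9 of Irf8 and 3264 of Sparc. Just inside lay members with exactly 2 marker UMIs, 9 in control and 2 in L-fuc, and the control ones had 127 CPM of Plac8, 457 of Irf8 and 3348 of Sparc. In L-fuc the barcodes just outside had 326 CPM of Plac8 (226 to 456) and 508 of Irf8 (381 to 665). The 2 members just inside had 553 (276 to 989) and 804 (459 to 1305), and these intervals overlap. Members of control day 7 with 10 or more marker UMIs had 1574 CPM of Plac8, 1328 of Irf8 and 1981 of Sparc.

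The label was checked with genes that the rule did not use. Runx2, named as a marker with the rule genes, had 54 UMIs in 32 control members (180 CPM, 135 to 235) and 45 in 20 L-fuc members (218 CPM, 159 to 292), against 29.5 and 41.9 CPM in the other Ptprc barcodes. Every day 7 member of either library had a UMI of at least 1 of Tcf4, Runx2, Irf8, Spib and Bcl11a. At least 3 of these 5 factors were found in 49 of 64 control members (76.6%) and in 25 of 26 of the deeper L-fuc members (96.2%). The same shares in other barcodes are not given here, so these counts alone do not set the members apart. Tcf4 alone says little, since 34 of the 64 control barcodes just outside the rule also had a Tcf4 UMI, against 9 with Irf8, 8 with Runx2 and 1 each with Spib and Bcl11a. Tcf4 was the only factor found in 4 control members and 1 L-fuc member. Of these, 2 control members of 13322 and 14254 UMIs had 56 and 71 Sparc UMIs and none of Ptprc. Lists of other lineages were not absent, and a macrophage gene was seen in 60 of 64 control and 22 of 26 L-fuc members, a tumor gene in 59 and 10, a T or NK gene in 28 and 14 and a B cell gene in 2 and 5. Of their genes, Cd79a, Ms4a1 and Pax5 of B cells, Trbc2 of T cells and Adgre1 of macrophages had 0 UMIs in the members of both day 7 libraries. Other genes of the same lists had UMIs in both, among them Trac, Nkg7 and Gzma, Cd79b, and Apoe and Lyz2. The genes at 0 therefore do not show that these lineages were absent, and the C1q and Cd3 genes were held down by the rule.

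Within the members these genes spanned from none to many UMIs. Siglech had 1 to 18 UMIs per control member (median 3.5) and 2 to 40 per L-fuc member (median 7.5). Tcf4 had 0 to 8 UMIs per control member (median 2) and 1 to 10 per L-fuc member (median 4). Irf8 had 0 to 17 (median 5) and 0 to 30 (median 12.5). The ranges of both libraries overlapped for each of these genes, and the medians were higher in the deeper L-fuc members. Bst2 had 0 to 28 UMIs (median 6) in control and 1 to 51 (median 15.5) in L-fuc, and Plac8 0 to 30 (median 2) and 1 to 56 (median 11.5). Runx2 and Spib were sparser, with at most 6 and 3 UMIs in a control member and at most 7 and 6 in an L-fuc member. Malat1, found in every member, had 3 to 320 UMIs (median 35.5) in control and 14 to 214 (median 58) in L-fuc.

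Gene values were then set beside those of all other barcodes with a Ptprc UMI in the same library, 4883 in control and 3936 in L-fuc at day 7. This is the contrast the rule used, so the values describe the members and support nothing. The other Ptprc barcodes include those with the marker UMIs that the C1q or Cd3 limit left out. Levels of pDC genes there are thus not those of other leukocytes alone. Among 4011 genes with at least 20 UMIs in the day 7 members, 304 (7.58%) were at least 2-fold higher and 53 (1.32%) at least 2-fold lower than in the other Ptprc barcodes in both libraries. The median log2 ratio over these genes was 0.11 in control and 0.26 in L-fuc. Of 30 pDC identity genes that the rule did not use, 27 had at least 20 UMIs, 24 of these were higher in both libraries and none was lower. Their median log2 ratio was 3.76 in control and 3.73 in L-fuc. The 3 not higher in both were Ptprs, Ptprcap and Lag3, and the 3 with too few UMIs were Ly6d, Cd300c and Gm21762.

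Of 18 transcription factors of dendritic cell fate, 12 had enough UMIs, 6 of these were higher in both libraries and 1 was lower. Tcf4, the E protein that sets the pDC fate, had 170 UMIs in 56 control members (566 CPM against 93.7 in other Ptprc barcodes, log2 ratio 2.59) and 129 UMIs in all 26 L-fuc members (626 against 58.6 CPM, log2 ratio 3.42). Spib had 133 CPM (95.1 to 181) against 2.10 in control and 170 CPM (118 to 236) against 2.53 in L-fuc, with log2 ratios of 5.94 and 6.03. Irf8 had 1188 CPM against 109 in control and 1572 CPM against 260 in L-fuc (log2 ratios 3.45 and 2.60). Bcl11a had 223 CPM against 3.79 and 286 CPM against 5.32 (log2 ratios 5.85 and 5.73). Cbfa2t3, a corepressor that works with E proteins, was also higher in both libraries, with log2 ratios of 3.87 and 3.96. Id2, the inhibitor of E proteins that drives the other dendritic cell fates, was the factor that was lower, with 96.5 CPM against 282 in control and 102 CPM against 490 in L-fuc. Zeb2 went in different directions in the libraries (log2 ratios -0.43 and 0.91). Batf3, Zbtb46, Irf4, Nfil3, Klf4 and Relb, factors of other dendritic or myeloid cells, had too few UMIs, at most 9 in either library. Of 18 genes of conventional and transitional dendritic cells, a list that holds some of these factors, 7 had enough UMIs, and Clec9a (log2 ratios 4.91 and 3.49), Cd209a (6.28 and 5.22) and Clec10a (5.64 and 5.18) were higher in both libraries, with list medians of 1.45 and 1.59.

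Depth differed between the libraries, so each barcode was also thinned at random to 1000 UMIs, which left out 1 control member and no L-fuc member. Barcodes with at least 2 Cd3 UMIs, called the T cell gate, served as cells that should lack these genes, and their median depth was 3130 UMIs in control and 3923 in L-fuc. A Tcf4 UMI was then found in 57.1% of control members (44.0 to 69.5%) and 61.5% of L-fuc members (40.6 to 79.8%), against 6.87% and 2.15% of T cell gate barcodes. Without thinning these shares were 87.5% and 100% of members and 26.6% and 13.1% of T cell gate barcodes. The single draw was noisy at these numbers of members. Averaged over all draws, the share with Tcf4 was 51.4% and 52.9% of members. Irf8 was found in 65.1% and 73.1% of thinned members against 6.2% and 7.89% of T cell gate barcodes, and Bst2 in 66.7% and 76.9% against 21.7% and 15.2%. Spib was found in 22.2% and 26.9% of members against 0.135% and 0.307%. Plac8, a gene of monocytes and pDC, was found in 50.8% (37.9 to 63.6%) of control and 76.9% (56.4 to 91.0%) of L-fuc members, against 4.58% and 7.58% of T cell gate barcodes.

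**Figure D2:**
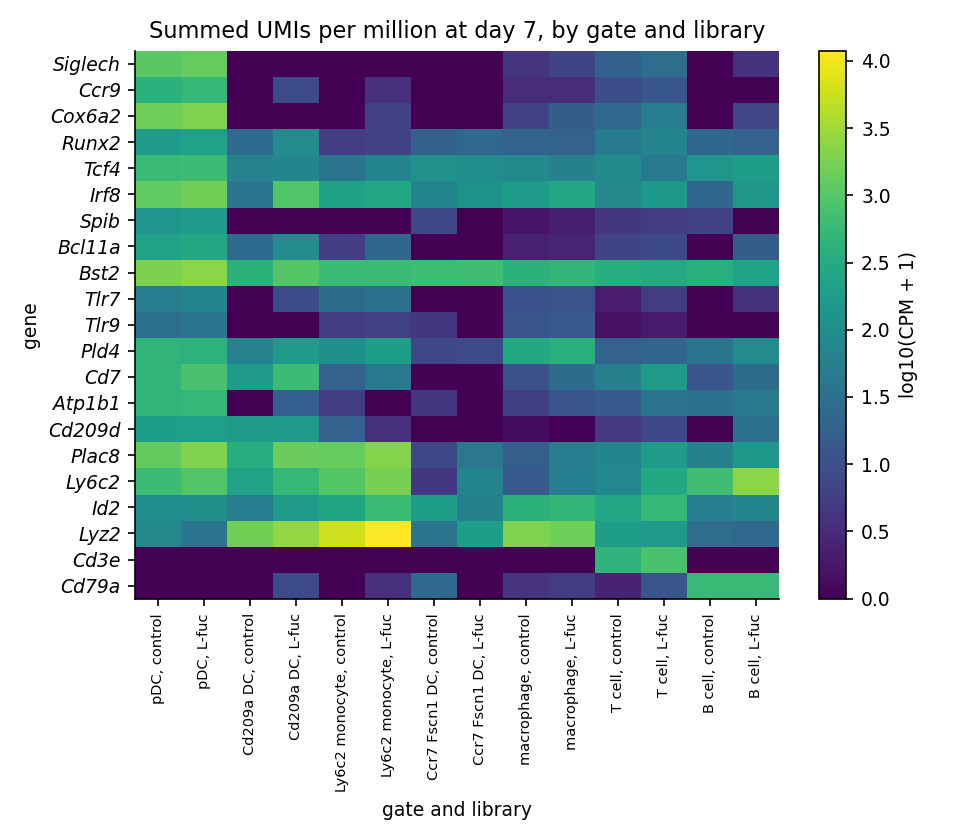
Summed UMIs at day 7 as log10(CPM + 1) for genes of pDC and of other cells (y axis) in pDC and in 6 other groups of barcodes defined by a few UMIs (x axis), each in control and L-fuc. Siglech, Ccr9 and Cox6a2 chose the pDC columns, and Spib, Bcl11a, Tlr7 and Atp1b1, which did not, are also at their highest there, whereas Plac8 and Ly6c2 are shared with the Ly6c2 monocytes.

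The 20 genes with the highest lowest log2 ratio over both libraries, leaving out those of the rule, were led by Klk1, a kallikrein protease, with 34 UMIs in 17 control members and 42 in 13 L-fuc members (113 CPM against 1.69 and 204 CPM against 1.46 in other Ptprc barcodes). Gria3, a glutamate receptor subunit, followed with 11 and 15 UMIs, and then Spib, Kmo, an enzyme of tryptophan breakdown with 43 and 48 UMIs, and Bcl11a. The others were Ctnnd2, Cd209d, Flt3, Gm12253, Sh3bgr, Atp2a1, Klk1b27, Myh13, Dntt, Fads2, Cd209a, Rnase6, Clec10a, Upb1 and Fcrla, with lowest log2 ratios from 5.72 (Ctnnd2) to 5.13 (Fcrla). Atp2a1 and Myh13 are, like Cox6a2, otherwise known from skeletal muscle, and had 22 and 9 UMIs in control and 21 and 12 in L-fuc. Klk1 and Klk1b27 belong to a family of near-identical genes, so reads may have been split between them. Among the lowest genes were Lyz2 (log2 ratios -3.18 and -4.40), Gatm, Rgs1, AW112010, Apoe, Cxcl10, Ccl8, Il1b and Ccl5, most of them known from macrophages and other activated leukocytes.

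In a list for the pathway that senses nucleic acids, 12 of 18 genes had enough UMIs. Of these, 6 were higher than in other Ptprc barcodes in both libraries and none was lower. Tlr7, the receptor for single-stranded RNA, had 15 UMIs in 14 control members and 15 in 11 L-fuc members, 49.9 and 72.8 CPM against 5.25 and 6.71 (log2 ratios 3.23 and 3.43). Tlr9, the receptor for DNA, had 9 and 8 UMIs and did not reach 20. Unc93b1, which carries these receptors to endosomes, had log2 ratios of 1.29 and 1.09, Slc15a4, an endosomal transporter needed for the pDC response, of 1.64 and 1.98, and Pld4, an endosomal nuclease, of 1.92 and 1.26. Cybb, an oxidase subunit, and Plac8 were the others of the list that were higher. Plac8 is a gene of monocytes and pDC and not a sensor, so its level does not speak for this pathway. Irf7, the factor that turns on interferon alpha genes, had 24 UMIs in 16 control members and 17 in 10 L-fuc members, with log2 ratios of 0.85 and 0.23, and Myd88 had 0.83 and 1.20.

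Interferon RNA was almost absent from the counts of these members. The 13 interferon alpha genes in the matrices, Ifnab, Ifnb1, Ifne, Ifnz, Ifnl2 and Ifnl3 had 0 UMIs in the members of both day 7 libraries, and Ifnk had 1 UMI in L-fuc. A count of 0 allows up to 9.99 CPM over the control members and 14.6 CPM over the L-fuc members. In the other Ptprc barcodes Ifnb1 had 33.7 CPM in control and 41.5 CPM in L-fuc, while the interferon alpha genes had at most 0.412 CPM (Ifna2). Reads of the interferon alpha genes can be lost because the copies are near-identical. Of the other cytokines, Il12a, a subunit of interleukin 12, had 4 and 5 UMIs, and Il12b, Il6 and Il10 had 0. Of the 6 genes of this list with at least 20 UMIs, Tnf, Ccl3, Ccl5 and Cxcl10 were lower than in other Ptprc barcodes in both libraries, Ccl4 was lower in control alone (log2 ratios -1.59 and -0.36), and Tgfb1 was near the others (0.30 and 0.15).

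Interferon-stimulated genes were near the level of the other leukocytes. Of 32 in the matrices, 12 had enough UMIs, with Stat2 (log2 ratios 1.45 and 1.94) and Bst2, also known as tetherin (2.14 and 2.57), higher in both libraries and Isg15 (-1.76 and -1.30) lower. The list median was 0.41 in control and 0.34 in L-fuc. Ifit1, Ifit3 and Cmpk2 had 0 UMIs in control members and 1 or 2 in L-fuc members. Among interferon and cytokine receptors, 8 of 11 had enough UMIs and 4 were higher in both libraries. These were Ifnar2, a chain of the type I interferon receptor (log2 ratios 1.04 and 1.09), Flt3, the receptor for the growth factor of dendritic cells (5.79 and 5.54), Csf2rb (2.33 and 2.16) and Il7r (2.15 and 1.23). Flt3 had 32 UMIs in 22 control members and 37 in 15 L-fuc members.

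Of receptors that signal through ITAM motifs, inhibitory receptors and their partners, 12 of 16 had enough UMIs, 8 were higher in both libraries and 1, Fcgr2b, was lower. Tyrobp, the adaptor of SIGLECH, had 743 UMIs in 49 control members (2473 CPM against 727) and 664 in all 26 L-fuc members (3222 CPM against 1369). Fcer1g, the adaptor of Fc receptors, lay on the other side, with log2 ratios of -0.97 and -1.30. Klra17 (2.71 and 2.34), Lair1 (2.48 and 2.19), Cd300a (1.38 and 1.51), Blnk (2.04 and 2.46) and Plcg2 (1.38 and 1.10) were also higher, with Siglech of the rule and Bst2. Blnk and Plcg2 carry signals of the B cell receptor and of its relatives in pDC.

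The lymphoid side of pDC was seen in genes that early B cells also use. Of 20 such genes 8 had enough UMIs, and 7 of them were higher in both libraries. Dntt, which adds bases at antigen receptor joints, had 26 UMIs in 17 control members and 27 in 17 L-fuc members (log2 ratios 5.39 and 5.87). Iglc3, an immunoglobulin light chain constant gene whose copies are alike, had 101 UMIs in each library, in 34 control and 23 L-fuc members (5.38 and 4.87). Ighm had 116 and 93 UMIs (2.26 and 2.15), and Igkc was lower than in the others (-1.12 and -2.50). Tcf4, Spib, Bcl11a and Blnk were the remaining genes that were higher. Rag1 and Rag2 had 0 UMIs in members of both libraries and also 0 CPM in the other Ptprc barcodes of these libraries.

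Genes of secretion, for which the cells are named after plasma cells, were measured well, with 35 of 36 at 20 UMIs or more. Only 3 of these 35 were at least 2-fold higher in both libraries. They were Xbp1, the factor of the secretory program (log2 ratios 1.13 and 1.13), Spcs3 (1.22 and 1.15) and Edem2 (1.02 and 1.30), and none was lower. The list median was 0.20 in control and 0.64 in L-fuc. Sec61b, part of the translocon, had log2 ratios of 0.99 and 0.64 and Hsp90b1 of -0.04 and 1.05.

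Few antigen presentation genes were 2-fold higher or lower than in other leukocytes in both libraries. In L-fuc, H2-Aa and Cd74 stood below the other Ptprc barcodes by less than 2-fold. The H2-Aa level of L-fuc members was not below that of control members. Of MHC class II genes 8 of 10 had enough UMIs, and H2-Oa, a regulator of peptide loading, was higher in both libraries (2.92 and 1.97). H2-Aa had 1648 CPM in control and 1810 CPM in L-fuc members, against 1743 and 3078 in the other Ptprc barcodes, and Cd74 had log2 ratios of -0.10 and -0.82. The list median was 0.06 in control and -0.24 in L-fuc, and that of control turned to -0.05 relative to the median of all genes. Of 17 measured MHC class I and loading genes none was 2-fold higher or lower in both libraries. Costimulatory genes were sparse, with 5 of 16 at 20 UMIs, Cd80 at 0 UMIs and Cd86 at 3 and 1.

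Of 16 homing genes 9 had enough UMIs and 3 of these were higher in both libraries, among them Ccr9 of the rule and Selplg. Selplg, which encodes the selectin ligand PSGL-1, had 662 CPM against 138 and 645 CPM against 297. Cxcr3 had log2 ratios of 2.17 and 0.99. Of 18 fucosylation genes in the matrices 4 had enough UMIs (Slc35c2, Pofut2, Fuca1 and Fuca2), and none was 2-fold higher or lower in both libraries. Fut7, which makes selectin ligands, had 0 UMIs, and Fut4 had 5 and 3.

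The study's markers for monocyte-derived dendritic cells, Cd7, Atp1b1, Clec10a and Cd209d, were all higher in pDC than in the other Ptprc barcodes of both libraries. Cd7 had 483 CPM in control and 810 in L-fuc members, against 180 and 617 in barcodes with at least 2 Cd209a UMIs, called Cd209a DC here, of which there were 11 and 17. Atp1b1, a subunit of the sodium pump, had 459 and 524 CPM in pDC against 0 and 15.4 in Cd209a DC, Clec10a had 123 and 160 against 38.5 and 46.3, and Cd209d had 183 and 199 against 167 and 154. Plac8 and Ly6c2, which the study used for monocytes, had 1245 and 626 CPM in control pDC and 1907 and 922 in L-fuc pDC. Barcodes with at least 2 UMIs each of Ly6c2 and Lyz2 had 1284 and 973 CPM of Plac8 and Ly6c2 in control and 2046 and 1725 in L-fuc. The pDC members had 83.2 CPM of Lyz2 in control and 38.8 in L-fuc.

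Members were not alike. Cd209a, a lectin of other dendritic cells, had 5 or more UMIs in 5 control and 3 L-fuc members, which had 3550 to 6109 and 8851 to 11367 UMIs, and a UMI of it was found in 18 control and 11 L-fuc members in all. Sparc had 10 or more UMIs in 10 control members of 9037 to 18338 UMIs and in 3 L-fuc members of 11057 to 29236 UMIs. These limits were set after the values were seen. Whether these members are doublets with the Sparc-rich barcodes was not tested. In control, Cox6a2 had no UMI in 23 members, Ccr9 none in 21, Bst2 none in 10 and Ptprc none in 7, whereas in L-fuc these numbers were 4, 5, 0 and 0.

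The 34 control members with under 10 marker UMIs differed from the 30 with more in genes outside the rule. They had a median of 2289 UMIs against 4512 and of 4.19% mitochondrial UMIs against 2.37%. Their Bst2 level was 985 CPM against 2351, and that of Plac8 was 704 against 1574. Tcf4 went the other way, with 748 against 455 CPM, and so did Runx2, with 273 against 123 CPM, and Malat1, a nuclear long RNA, with 16992 against 6956 CPM. The 6 L-fuc members with under 10 marker UMIs had 375 CPM of Tcf4 against 692 in the other 20, and 6157 CPM of Malat1 against 9140.

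Lists of other cell types were summed in the members as UMIs per 10000. Macrophage genes reached 9.35 in control and 4.22 in L-fuc members, against 213 and 207 in barcodes with at least 10 C1q UMIs. The list holds C1qa, C1qb and C1qc, which the rule capped at 2 UMIs in members and which chose those barcodes. The contrast with them was thus set by the selection, and the cap weighs more on the deeper L-fuc members. In all, 60 of 64 and 22 of 26 members had a UMI of the list, 0 to 44.4 and 0 to 17.1 per 10000. Tumor genes reached 29.7 and 14.02, in 59 of 64 control and 10 of 26 L-fuc members (0 to 98.8 and 0 to 78.7), against 56.3 and 54.97 in Sparc-rich barcodes without Ptprc, 31.5 and 13.1 in other Ptprc barcodes and 32.6 and 12.1 in the T cell gate. Pmel, Mlana and Col1a1 of that list were at 0. T and NK genes reached 4.89 and 13.5, in 28 and 14 members (0 to 103 and 0 to 104), with Trbc2 at 0. The most abundant gene of this list was Gzma, a granzyme, of which 1 control member held 81.8% of 66 UMIs and 1 L-fuc member 53.4% of 204. Neutrophil genes were in 5 control members and 1 L-fuc member, at up to 346 and 16.4 per 10000, mast cell genes in 4 members of each, at up to 8.83 and 53.4, and B cell genes in 2 and 5 members, at up to 4.26 and 3.79. Red cell genes, whose copies are alike, were in 37 and 25 members and reached 5.89 and 9.51, with 1 control member at 474.

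Contigs of the T cell receptor, sequenced from each pool, gave a readout the rule did not use, although its limit on Cd3 UMIs bears on it. None of the 64 control members had a receptor contig, which at 3 counts of the total allows a share of up to 4.69%, and none of the 26 L-fuc members did, which allows up to 11.5%. In the T cell gate, 358 of 755 control barcodes (47.4%) and 579 of 991 L-fuc barcodes (58.4%) had a contig. In barcodes with at least 10 C1q UMIs the shares were 0.335% and 0.207%. Over all kept barcodes they were 5.22% in control and 11.8% in L-fuc, close to the limits allowed for the members. The rule allowed members no Cd3 UMI and the T cell gate required at least 2, so their difference was bound up with the selection. The lack of contigs hardly sets the members apart from kept barcodes in general. Barcodes with the marker UMIs of the rule that were left out by its C1q or Cd3 limit had a contig in 23 of 74 cases in control (31.1%, 20.8 to 42.9%) and in 21 of 47 in L-fuc (44.7%, 30.2 to 59.9%).

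The share of pDC at day 7 was asked next, since L-fuc was given to change the immune cells of the tumor. Members were 0.358% of kept control barcodes (0.276 to 0.456%) and 0.288% of kept L-fuc barcodes (0.188 to 0.421%), a ratio of 0.805 whose interval (0.490 to 1.29) includes 1. Among barcodes with a Ptprc UMI they were 57 of 4940 (1.15%, 0.875 to 1.49%) and 26 of 3962 (0.656%, 0.429 to 0.960%), a ratio of 0.569 (0.343 to 0.919). This ratio compares 2 libraries and not the treatments. Other leukocytes were a larger share of kept barcodes in L-fuc, with ratios of 2.60 for the T cell gate, 2.40 for macrophages, 2.86 for Ly6c2 monocytes, 3.06 (1.35 to 7.23) for Cd209a DC and 1.58 (0.835 to 2.97) for B cells, while barcodes with Ccr7 and Fscn1 of mature dendritic cells had 1.02 (0.561 to 1.78).

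The order of the libraries rested on the limits of the rule. Its C1q and Cd3 limits left out 74 of 138 barcodes with the marker UMIs in control (53.6%) and 47 of 73 in L-fuc (64.4%), with median depths of 6425 and 11084 UMIs. Without these limits the ratios became 1.05 (0.778 to 1.40) of kept barcodes and 0.698 (0.513 to 0.943) of Ptprc barcodes. For barcodes with at least 10 marker UMIs, a limit set after the data were seen, there were 30 in control and 20 in L-fuc, and the ratios were 1.32 (0.711 to 2.40) and 0.860 (0.461 to 1.57). With at least 10 marker UMIs and no limit on C1q or Cd3, 62 and 61 barcodes gave 1.95 (1.35 to 2.82) and 1.23 (0.841 to 1.79). With every barcode thinned to 1000 UMIs before the marker rule, 50 and 31 barcodes gave 1.24 (0.763 to 1.97) of kept barcodes, and 32 and 19 gave 0.706 (0.378 to 1.28) of Ptprc barcodes. The direction of the ratio therefore depended on the limits of the rule, on depth and on the denominator.

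**Figure D3:**
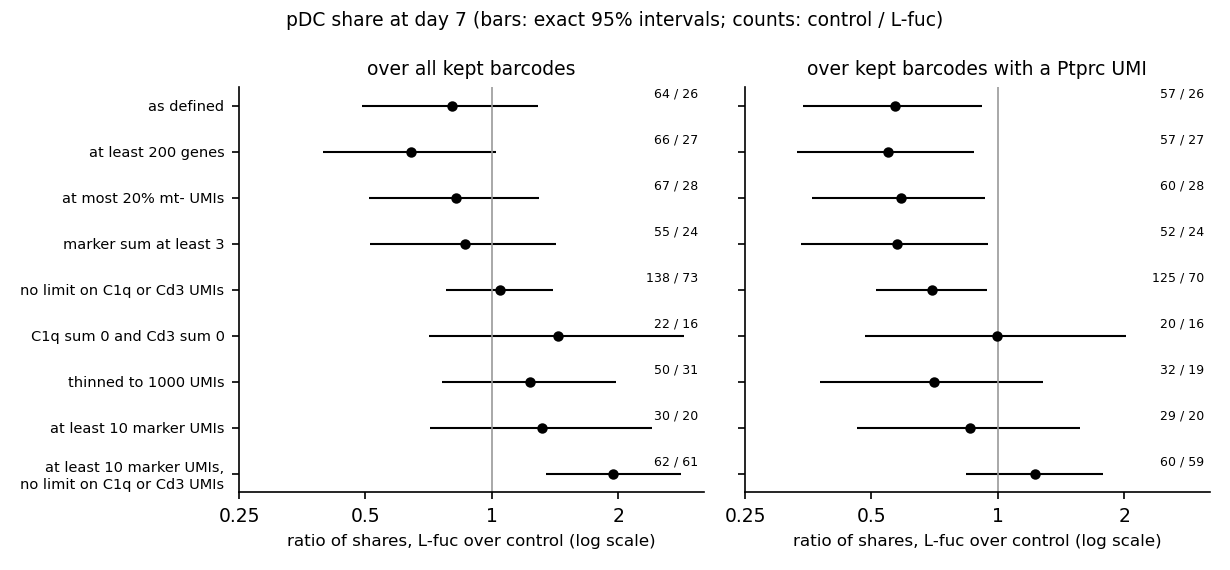
Ratio of the pDC share in L-fuc over control at day 7 (x axis, log scale) under each setting of the rule (y axis), of all kept barcodes on the left and of Ptprc barcodes on the right. Points are ratios, bars are exact 95% intervals and the numbers are barcodes in control and L-fuc. As defined, the ratios are 0.805 and 0.569, and with at least 10 marker UMIs and no C1q or Cd3 limit they are 1.95 and 1.23.

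Gene levels in the members of L-fuc day 7 were then compared with those of control day 7. Of 4011 genes with at least 20 UMIs in these members together, 210 (5.24%) were at least 2-fold higher and 231 (5.76%) at least 2-fold lower in L-fuc, at a median log2 ratio of 0.02. Of the 27 measured identity genes 6 were 2-fold higher and none lower, with a median of 0.61. Among them, Smim5 had 59.9 CPM (35.5 to 94.7) in control and 170 CPM (118 to 236) in L-fuc, a log2 ratio of 1.44. Lag3, a receptor for MHC class II, had 43.3 CPM (23.04 to 73.99) and 126 CPM (82.4 to 185). Also higher were Cbfa2t3 (1.27), Klk1b27 (1.09) and Fcrla (1.02). In L-fuc these 5 named genes were spread over 12 to 16 members, with at most 30.8% of the UMIs of 1 gene in 1 member. In the other Ptprc barcodes the same log2 ratios were 1.26 for Cbfa2t3, 0.61 for Smim5 and 1.31 for Lag3. Control members held more barcodes with few marker UMIs, and with members of at least 10 marker UMIs alone the list median was 0.49. The part of member composition in these values was not tested.

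Single genes at the extremes rested mostly on 1 member. Mcpt1, a mast cell protease, had 11 UMIs in 8 control members and 228 UMIs in 4 L-fuc members, 98.2% of them in 1 barcode, and Mcpt2 had 8 and 125 UMIs with 96.8% in 1 barcode. Tpsab1, a mast cell tryptase, had 1 and 35 UMIs, with 97.1% of the latter in 1 barcode. Of Gm26885 there were 1 and 24 UMIs (87.5% in 1 barcode), of Cd83, a maturation gene, 3 and 30 (93.3%), of Tex101 2 and 18 (100%), of Clec4e 4 and 26 (100%) and of Cdc20, a gene of mitosis, 4 and 26 (84.6%). Tnfsf9, a costimulatory ligand, had 3 UMIs in 3 control members and 31 in 4 L-fuc members, 64.5% of them in 1 barcode. Among members with at least 10 marker UMIs the log2 ratio was 0.14 for Tnfsf9 and 0.10 for Cd83, so their higher values lay in members with few marker UMIs. Ifitm1, an interferon-induced gene, had 13.3 CPM (3.63 to 34.1) and 267 CPM (201 to 347), a log2 ratio of 3.97, in 4 members of each library, and 3.47 without the member with most UMIs in each. The study used Ifitm1 as a mast cell marker. In the other Ptprc barcodes the same ratio was 2.98 for Ifitm1, 3.18 for Mcpt1, 3.60 for Mcpt2 and 3.94 for Tpsab1, so these genes were higher in L-fuc outside the members too.

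Most genes at the lower end were found in more members. Apoe, a lipoprotein made by macrophages and tumor cells, had 139 UMIs in 33 control members (463 CPM, 389 to 546) and 8 UMIs in 8 L-fuc members (38.8 CPM, 16.8 to 76.5), a log2 ratio of -3.45, and the control member with most of them held 38.1%. Hspb1, a small heat shock protein, had 32 UMIs in 8 control members and 0 in L-fuc, Ccl8, a chemokine, had 22 in 12 members and 0, and Bgn, a matrix gene, had 21 in 6 members and 0. A count of 0 allows up to 14.6 CPM over the L-fuc members. Ccn1, another matrix gene, had 78 UMIs in 17 members and 4 in 4. The histone genes Hist1h1d, with 41 and 1 UMIs, and Hist1h1b, with 35 UMIs in 22 members and 2, have near-identical relatives. Cytl1 had 65 and 1 UMIs with 90.8% of the former in 1 barcode, S100a8 had 54 and 1 with 100% in 1 barcode, and G0s2 had 20 and 0 with 90% in 1 barcode. Of 5 measured tumor genes 3 were 2-fold lower in L-fuc, against 5.76% of all genes compared. They were Sparc (1940 and 966 CPM), Sox10 (log2 ratio -1.13) and Serpine2 (-1.41). In the other Ptprc barcodes these were lower as well (-1.40, -1.04 and -1.14). Without members of at least 10 Sparc UMIs the log2 ratio of Apoe was -2.02 in place of -3.45.

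**Figure D4:**
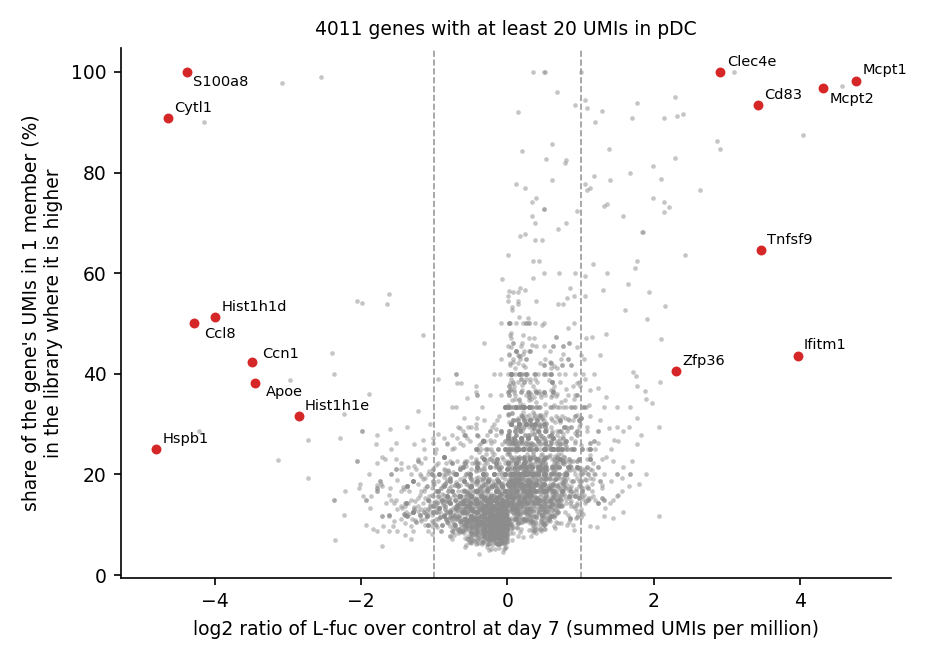
Share of a gene's UMIs held by the single member with most of them, in the library where the gene is higher (y axis, %), against the log2 ratio of L-fuc over control at day 7 (x axis), for 4011 genes, with dashed lines at 2-fold. Mcpt1, Mcpt2, Cd83 and Clec4e on the right and Cytl1 and S100a8 on the left have over 90% of their UMIs in 1 member, whereas Apoe and Hspb1 are spread over several.

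Cytokine and response genes gave a mixed picture between the libraries. Of the 6 measured interferon and cytokine genes 4 were 2-fold higher in L-fuc, against 5.24% of all genes compared. In the other Ptprc barcodes the same log2 ratios were 0.76 for Ccl4, 1.22 for Ccl3, 1.63 for Ccl5 and 0.31 for Tnf. Ccl4, a chemokine, had 346 CPM (283 to 419) in 26 control members and 1373 CPM (1218 to 1543) in 11 L-fuc members, and the member with most UMIs held 34.3% of those in L-fuc. Thinned to 1000 UMIs, 22.2% (12.7 to 34.5%) of control and 30.8% (14.3 to 51.8%) of L-fuc members had a Ccl4 UMI, and these intervals overlap. Ccl3 (log2 ratio 2.30) had 83.0% of its 47 L-fuc UMIs in 1 member, Ccl5 (1.31) 56.6% of 129 and Tnf (1.09) 76.5% of 17. Of 15 genes that respond to dissociation and stress, Zfp36 (2.30), Junb (1.76) and Atf3 (2.86) were 2-fold higher and Fosb (-1.98) lower in L-fuc. Zfp36, which shortens cytokine RNA, had 83 UMIs in 32 control and 284 in 18 L-fuc members, and the member with most UMIs held 40.5% of the latter. Atf3 had 86.2% of its 80 L-fuc UMIs in 1 member.

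Between the libraries, 3 of 5 measured costimulatory and tolerance genes were 2-fold higher in L-fuc (median log2 ratio 1.46), against 5.24% of all genes compared. Tnfsf9 had 64.5% of its L-fuc UMIs in 1 barcode and a log2 ratio of 0.14 in members with at least 10 marker UMIs. Lag3 was also higher in the other Ptprc barcodes, and Gzmb, a granzyme, had only 5 and 18 UMIs. Of 9 homing genes 2 were higher, among them Itgal, an integrin chain with 23 and 33 UMIs, and of 7 genes of other dendritic cells Cd8a was higher (1.23) and Fscn1 lower (-1.06). Of 6 measured macrophage genes 5 were lower in L-fuc (median -1.58), against 5.76% of all genes compared. They were C1qa, C1qb, C1qc, Apoe and Lyz2. The rule allowed each member at most 2 C1q UMIs, and the L-fuc members were deeper (median 6250 against 2957 UMIs). The cap thus lowered their C1q CPM, so the list count and median do not describe L-fuc. The macrophage share of kept barcodes was 2.40 times that of control. All 3 measured neutrophil genes were lower (median -3.09), with S100a8 found in 1 control and 1 L-fuc member. A single control member held 100% of the control UMIs of S100a8, and a single one held 98.9% for S100a9 and 97.8% for Retnlg. In the other Ptprc barcodes these genes went the other way, with log2 ratios of 0.95, 1.03 and 1.43. Of 12 measured genes of the sensing list 1, Irf5, was higher in L-fuc (8 and 12 UMIs). The same held for Ly6a (1.72) and Phf11b (1.42) of 12 interferon-stimulated genes, Csf2ra (1.77) of 8 receptors and Herpud1 (1.11) of 35 secretory genes. None of 8 MHC class II, 17 MHC class I and loading, 12 ITAM, 8 lymphoid and 12 cytochrome c oxidase genes was 2-fold higher or lower. Of 4 fucosylation genes Fuca1, the lysosomal fucosidase, was lower, with 19 UMIs in 13 control members and 6 in 6 L-fuc members (63.2 CPM, 38.1 to 98.8, and 29.1 CPM, 10.7 to 63.4), and the intervals overlap. Of the transcription factors Cbfa2t3 was higher and Id3, another inhibitor of E proteins, lower, with 25 UMIs in 9 members and 4 in 3, whereas Tcf4 (0.14), Spib (0.34), Irf8 (0.40), Bcl11a (0.35), Runx2 (0.28) and Irf7 (0.04) changed by less than 2-fold. Of 9 cell cycle genes Ccnb2 (1.74) and Birc5 (1.37) were higher, with 61.1% and 73.7% of their L-fuc UMIs in 1 member, and the list median of 0.47 turned to -0.72 without the 5% of members with most UMIs.

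The other times held too few members for gene comparisons. The 3 pretreatment members had 1293, 6097 and 14176 UMIs, with 12, 39 and 2 marker UMIs. The deepest of them also had 27 Cd79a, 18 Cd79b and 14 Igkc UMIs with 1 Siglech UMI, genes that define B cells, while the other members had 0 Cd79a UMIs, with 2 and 8 UMIs of Siglech, 1 and 11 of Ccr9 and 9 and 20 of Cox6a2. The control day 21 member had 7 Siglech UMIs, none of Ccr9 or Cox6a2, 11 of Tcf4, 17 of Irf8 and 13 of Atp1b1 among 3534. Members were 0.204% (0.0421 to 0.595%) of 1470 kept barcodes at pretreatment, 0.0636% (0.00161 to 0.354%) of 1573 in control day 21 and 0 of 1182 in L-fuc day 21, which allows up to 0.254%. Without the C1q and Cd3 limits there were 4, 2 and 3 barcodes.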

How the data were processed

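The deposited files were UMI count matrices of 5 expression libraries from 10x Genomics and contig lists of 5 T cell receptor libraries. Per the labels and the study's methods, the authors mapped the reads to mm10 and made the counts with Cell Ranger 3.0 for use in Seurat 4.0, whereas the file headers name Cell Ranger 7.1.0. The authors removed cells that several doublet callers marked, but whether the deposited matrices precede that step is not stated. No doublet caller was run here. The C1q and Cd3 limits of the rule bear only on macrophage and T cell RNA, so doublets with other cells may remain among the members.

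Members and gene lists were chosen with earlier results of these data known. UMIs were summed over members per library and divided by their total (CPM). Log2 ratios used a pseudocount of 1 UMI, scaled to each library, and genes with at least 20 UMIs in the day 7 members. A gene was called past 2-fold. Intervals were exact at 95% (Poisson for counts, Clopper-Pearson for shares, conditional for ratios), and a count of 0 was given the limit of 3 counts. Named genes were those of the lists, the 20 highest over the other Ptprc barcodes, and the 10 highest and 10 lowest between L-fuc and control, and the 10 lowest against the other Ptprc barcodes were added after their values were seen. Pretreatment had 3 members, under the 20 set for gene comparisons, and was left out of them. Some genes of the lists are not reported here. The L-fuc dose was taken as 100 mM. The rule, thinning, pseudocount, filters, scaling and single members were varied. Promoters came from RefSeq on GRCm38.p6, the assembly of mm10. The scripts were tested on simulated data and ran in Python 3.11.15 with scipy 1.17.1, numpy 2.4.6, matplotlib 3.10.9 and pandas 2.3.3.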

Additional observations from a re-analysis of the deposited data

Results flagged for a closer look

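Of the 10 highest and 10 lowest genes between the day 7 libraries, 2 were at least 2-fold apart in one direction in the members and in the other direction in the other Ptprc barcodes, and the difference was not tested. Tex101 had a log2 ratio of L-fuc over control of 3.11 in pDC against -1.56 in the other Ptprc barcodes, and 1 member held 100% of its 18 UMIs in L-fuc. G0s2 had -4.16 in pDC against 1.90 in the others, and 1 member held 90% of its 20 UMIs in control. Both ratios in pDC rest on 2 or fewer UMIs in one of the libraries and so depend on the pseudocount.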

How the results depend on the processing

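No paired analysis was possible because each condition was 1 library of pooled mice with no replicate number shared between libraries. The ratio of pDC shares, 0.805 of kept barcodes, became 1.44 with no C1q or Cd3 UMI allowed, 1.32 with at least 10 marker UMIs and 1.95 with that and no C1q or Cd3 limit. The ratio of Ptprc barcodes, 0.569, became 0.997 with no C1q or Cd3 UMI allowed and turned to 1.23 with at least 10 marker UMIs and no such limit. The 210 genes higher in L-fuc became 102 with a pseudocount of 5 UMIs, 471 with at least 10 UMIs, 52 with at least 50, 114 without members of at least 10 Sparc UMIs and 135 without the member with most UMIs of each gene. The 231 lower genes became 126 with that pseudocount, 606 and 47 with those minimums, 459 as means over barcodes, 122 in members with at least 10 marker UMIs and 501 without the member with most UMIs. Without that member the log2 ratio turned to -0.54 for Mcpt1, -0.22 for Mcpt2 and -0.88 for Tex101. Centred on their median, 197 genes were higher and 238 lower. Against the other Ptprc barcodes, 163 genes were higher and 24 lower with at least 50 UMIs. The identity list's median between libraries, 0.61, became 0.70 without the 5% of members with most UMIs, 0.49 with at least 10 marker UMIs and 0.47 without Sparc members. Its median over other Ptprc barcodes became 3.65 in control and 3.47 in L-fuc relative to all genes, 4.12 and 4.09 without Sparc members, 4.01 in control with at least 10 marker UMIs and 4.02 in L-fuc without the deepest 5%. At 2000 UMIs, Tcf4 was in 81.2% of control members and Runx2 in 52% of L-fuc members. Of 70 values of the main results under alternatives, 41 stayed within counting error or, for counts of genes, within 1.5 times. Settings with at least 10 marker UMIs, without Sparc members and without the member with most UMIs were chosen after seeing the data. Alternatives for control day 7 against pretreatment were not run, as pretreatment had too few members.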
